A study of Homo sapiens with 18 samples.

Results

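The p53-regulated DNA repair genes DDB2, XPC, POLH, RRM2B and PCNA and the GADD45 family (GADD45A, GADD45B and GADD45G) were followed across the RNA-seq libraries of irradiated and control lung cell lines. The members were taken by symbol, with no threshold on their values, though earlier results of these data were known when they were chosen. They are 8 of the 18475 genes listed by Entrez identifier in the deposited table. Of these, 7 passed the filter on low values in every line (an FPKM, fragments per kilobase of transcript and per read total, of 1 or more in 3 or more of the line's 6 libraries). GADD45G did not pass it in any line.

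The series holds 18 libraries in 6 groups of 3. BEAS-2B, a bronchial epithelial line immortalised with an adenovirus and SV40 hybrid, H446, a small cell lung cancer line, and A549, a lung adenocarcinoma line, were each measured as untreated controls and 24 h after 10 Gy of X-rays. All lines carry the genotype label Wild type, although BEAS-2B was immortalised as said above. The sample titles call the controls before and the irradiated libraries after, and no harvest time was given for the controls. If the controls were harvested earlier, time in culture and dose cannot be told apart. Each arm is 1 cell line, so line and tumour type cannot be told apart, and no source used here says whether replicates were separate cultures. The p-values therefore measure the spread between these libraries, which may be technical.

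On GRCh38.p14, DDB2 lies at chr11:47214454-47239217, XPC at chr3:14145147-14178601, POLH at chr6:43576185-43620523, RRM2B at chr8:102204501-102238961 and PCNA at chr20:5114953-5126622. GADD45A lies at chr1:67685201-67688334, GADD45B at chr19:2476127-2478257 and GADD45G at chr9:89605012-89606555. PCNA has 4 pseudogenes by name (PCNAP1 to PCNAP4), POLH has 1 (POLHP1) and GADD45A has 1 (GADD45AP1), and the division of reads between a gene and its copies is uncertain. XPC overlaps XPC-AS1, POLH overlaps GTPBP2, PCNA overlaps PCNA-AS1 and LOC124900464, and GADD45G overlaps LOC105376139. No strand setting of the counting was given in the sources used here, so reads of a member and of a gene overlapping it cannot be told apart.

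p53 is a transcription factor that is stabilised after DNA breaks and raises a set of genes for cell cycle arrest, death and repair. The large T antigen of SV40, which BEAS-2B cells carry, binds p53. DDB2 and XPC recognise distorted DNA in nucleotide excision repair. POLH encodes polymerase eta, which copies past damaged bases. RRM2B encodes the p53-inducible small subunit of ribonucleotide reductase, the enzyme that makes deoxynucleotides. PCNA is the ring that clamps polymerases to DNA. The GADD45 proteins are small acidic stress proteins that bind PCNA, p21, the kinase MAP3K4 and the CDK1 and cyclin B pair. GADD45A is a classical p53 target with its response element in an intron, while GADD45B is best known as a target of NF-kB and TGF-beta.

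Promoter windows of RefSeq (GRCh38.p14, 250 bases before to 50 after a transcript start) were matched for 6 of the 8 members, in 8 windows; RRM2B and GADD45A had none in the table used. They were searched for the p53 response element consensus, which is 2 half-sites of 10 letters set 0 to 13 bases apart. The half-site is its own reverse complement, so 1 search reads both strands. The stretches of DDB2 and PCNA are shown because they held the closest matches among the members. Capitals mark the half-sites.
DDB2, chr11:47214939-47215003, plus strand: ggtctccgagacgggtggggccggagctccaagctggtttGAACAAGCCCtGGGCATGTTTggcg
PCNA, chr20:5120135-5120208, minus strand: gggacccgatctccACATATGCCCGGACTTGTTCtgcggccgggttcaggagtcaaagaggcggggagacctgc
The DDB2 stretch runs from position -35 to 30 around the second of its transcript starts. It holds both half-sites without a mismatch, 1 base apart, from position 6 to 26, and 0.0285% of the 35116 windows searched held a match as good. The PCNA stretch starts 250 bases before the second of its starts. Its half-sites touch and have 2 mismatches in all, from position -236 to -217, with 1 half-site exact, and 7.82% of windows matched as well. The fewest mismatches were 3 in the XPC and GADD45B windows, as in 39.1% of windows or better, 4 in the first windows of DDB2 and PCNA, as in 84.2%, and 5 in the POLH and GADD45G windows, as in 98.9%. An exact half-site was held by 6.63% of windows. A match is a description of the letters in these windows and does not show binding.

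Before the members are compared, 1 library stands apart. CDKN1A, the p53 target that encodes p21, had an FPKM of 309.7 and 487.8 in BEAS-2B 10 Gy replicates 1 and 3 but 102.2 in replicate 2, against 79.9 to 86.4 in the controls. MDM2, the p53 target that encodes its ubiquitin ligase, had 47.5 and 87.8 in replicates 1 and 3 and 16.2 in replicate 2, below the control range of 17.5 to 18.9. In A549 cells, CDKN1A was 293.8 to 317.9 after irradiation and 100.7 to 106.3 in controls, and in H446 cells 63.6 to 72.4 and 71.7 to 75.7. The library labelled BEAS-2B 10 Gy replicate 2 was kept, and the BEAS-2B responses of the members are given with and without it. It was singled out by its p53 targets, and the repair members and GADD45A are p53 targets too. The values without it are thus conditioned on the measured response, and their calls and p-values are a description of the other libraries and no independent test.

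Total FPKM per library was 461255 to 529936, and the number of reads is unknown, so no counting interval is given. In the controls, 4 of 5 epithelial markers had a mean FPKM of at least 1 in each line, led by KRT8 and KRT18. Of 4 airway basal markers, 1 of them did so in BEAS-2B, 2 did in H446 and 0 did in A549. None of the 4 alveolar or lung adenocarcinoma markers did in any line, so SFTPB, SFTPC, NAPSA and NKX2-1 were near 0 in A549. Of 5 neuroendocrine markers measured, 3 passed in A549, 2 in BEAS-2B and 1 in H446. In H446 controls NCAM1 was at 0.0033 and SYP at 0.19, both near 0. The summed neuroendocrine level of H446 was 22.8 to 23.8 in controls and 15.5 to 16.2 after irradiation, nearly all of it UCHL1, and its part in the results was not tested. Of 5 fibroblast markers 2 passed in each line, and of 3 leukocyte markers 2 passed in BEAS-2B and 1 each in H446 and A549, with PTPRC at 0 to 0.04.

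**Figure D1:**
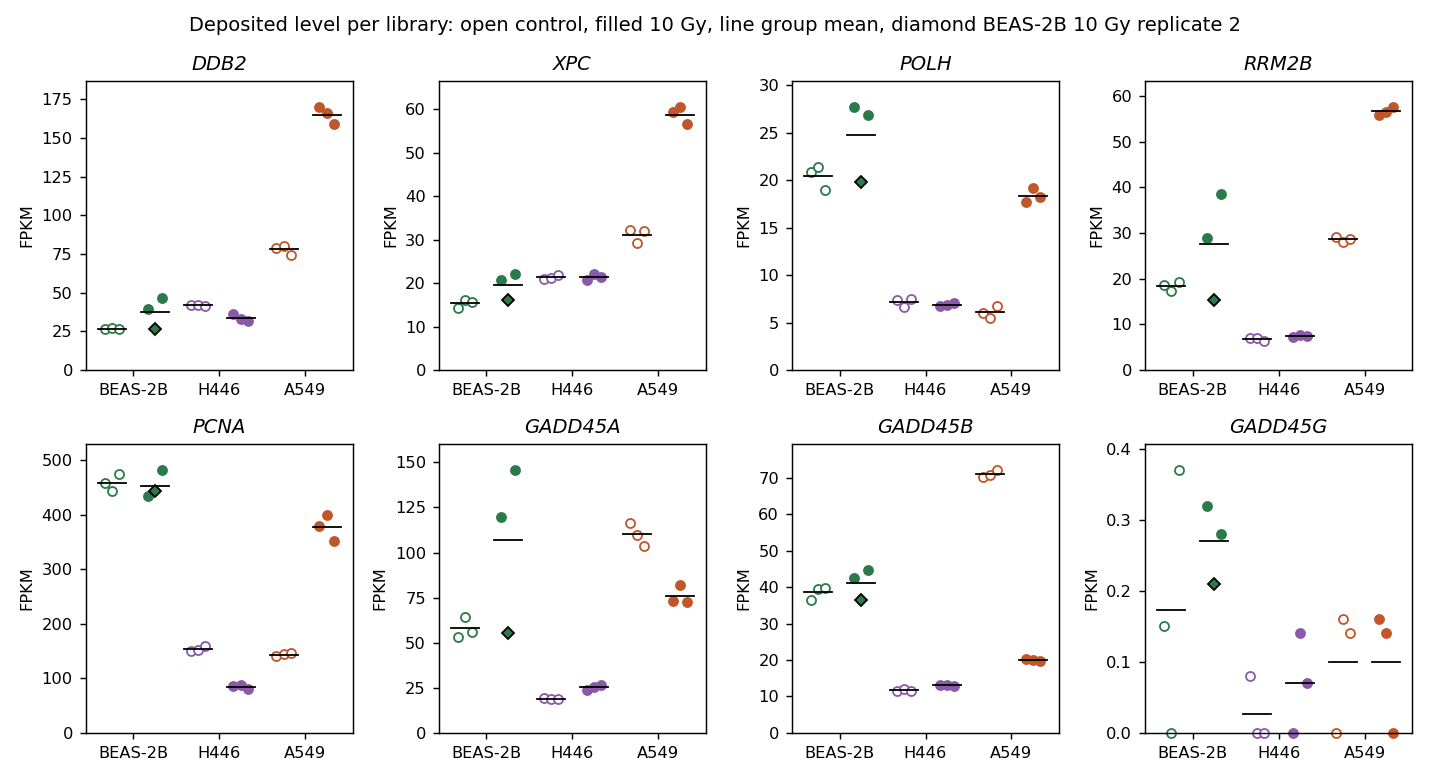
FPKM (vertical axes, from 0) of the 8 members in each of the 18 libraries, by line. Open symbols are controls, filled symbols 10 Gy libraries, horizontal lines group means, and the diamond is BEAS-2B 10 Gy replicate 2, which sits with its controls for DDB2, XPC, POLH, GADD45A and GADD45B and below them for RRM2B.

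The unirradiated lines differed in most members. In the fit of all 18 libraries over 13071 genes, A549 and BEAS-2B controls differed at an adjusted p under 0.05 in 7 of 7 members tested (5 higher and 2 lower in A549), against 83.8% of all genes. H446 and BEAS-2B controls differed in 7 members (2 higher and 5 lower in H446), against 81.1% of genes. H446 and A549 controls differed in 5 members, all lower in H446, against 83.2% of genes. These shares are close to or within a few members of those of all genes, and nothing particular to the members is read from them.

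A549 controls had the highest control level of the damage recognition genes. DDB2 was 1.50 higher on the log2(FPKM + 1) scale than in BEAS-2B (SE 0.12, adjusted p = 6.65e-10) and XPC 0.97 higher (SE 0.080, adjusted p = 1.39e-09). BEAS-2B controls had the most POLH and PCNA transcript. PCNA was 1.67 lower in A549 (SE 0.054, adjusted p = 1.1e-15) and 1.57 lower in H446 (SE 0.054, adjusted p = 2.88e-15), as log2 differences of -1.67 and -1.57. H446 controls had the lowest levels of RRM2B and of both measured GADD45 genes. Against A549, GADD45B differed by -2.50 (SE 0.059, adjusted p = 7.06e-18), GADD45A by -2.48 (SE 0.21, adjusted p = 1.92e-09) and RRM2B by -1.94 (SE 0.19, adjusted p = 1.22e-08). POLH and PCNA did not pass between H446 and A549 controls, with differences of 0.21 (95% confidence interval 0.0061 to 0.41, adjusted p = 0.0529) and 0.097 (-0.017 to 0.21, adjusted p = 0.106). POLH passed in 10 of 18 alternatives (adjusted p from 0.0077 to 0.215), among them the 9 control libraries alone (adjusted p = 0.0226), and PCNA in 2 of 18.

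After irradiation, all 5 repair members rose in A549 cells and both measured GADD45 genes fell. The 7 members that passed the filter were all called, where 51.7% of the 11993 genes tested were called (25.3% higher and 26.4% lower). With an absolute log2 fold change of at least 1 as well, 4 members (DDB2, POLH, PCNA and GADD45B) and 0.892% of genes were called. In H446 cells, PCNA and DDB2 fell, GADD45A and GADD45B rose, and XPC, POLH and RRM2B did not pass the test. In the fit of all 18 libraries, whose spread includes BEAS-2B 10 Gy replicate 2, PCNA alone passed in H446, beside 3157 of 13071 genes. The adjusted p in that limma fit was 0.0715 for DDB2, 0.173 for GADD45A and 0.0811 for GADD45B. The fit of the H446 libraries alone gave 4 of 7 members, beside 38.4% of 11479 genes (14.8% higher, 23.6% lower). By quantile normalization the H446 genes split into 2171 higher and 2183 lower, and after removal of a GC trend into 1814 and 1703, in place of 1698 and 2709. In BEAS-2B cells, none of 7 members passed with all 3 irradiated libraries, and 0% of 11734 genes did (0 genes by limma, 1446 at an unadjusted p under 0.05). In the fit of all 18 libraries, DDB2, XPC and GADD45A passed in BEAS-2B with all 3 irradiated libraries, as did 842 of 13071 genes. That fit shares 1 spread per gene over the lines, so its p-values for BEAS-2B responses may be too small. With the replicate number as a block, DDB2, XPC, RRM2B and GADD45A passed in BEAS-2B, beside 439 of 11734 genes. Without replicate 2, conditioned as said above, DDB2, XPC, POLH, RRM2B and GADD45A rose (5 of 7 members, beside 1.97% of genes), while PCNA and GADD45B did not pass. The median log2 fold change over the 7 members was 0.96 in A549, 0.00055 in H446 and 0.32 in BEAS-2B (0.45 without replicate 2), against -0.0040, -0.033 and 0.0019 (-0.0031) over all genes tested.

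**Figure D2:**
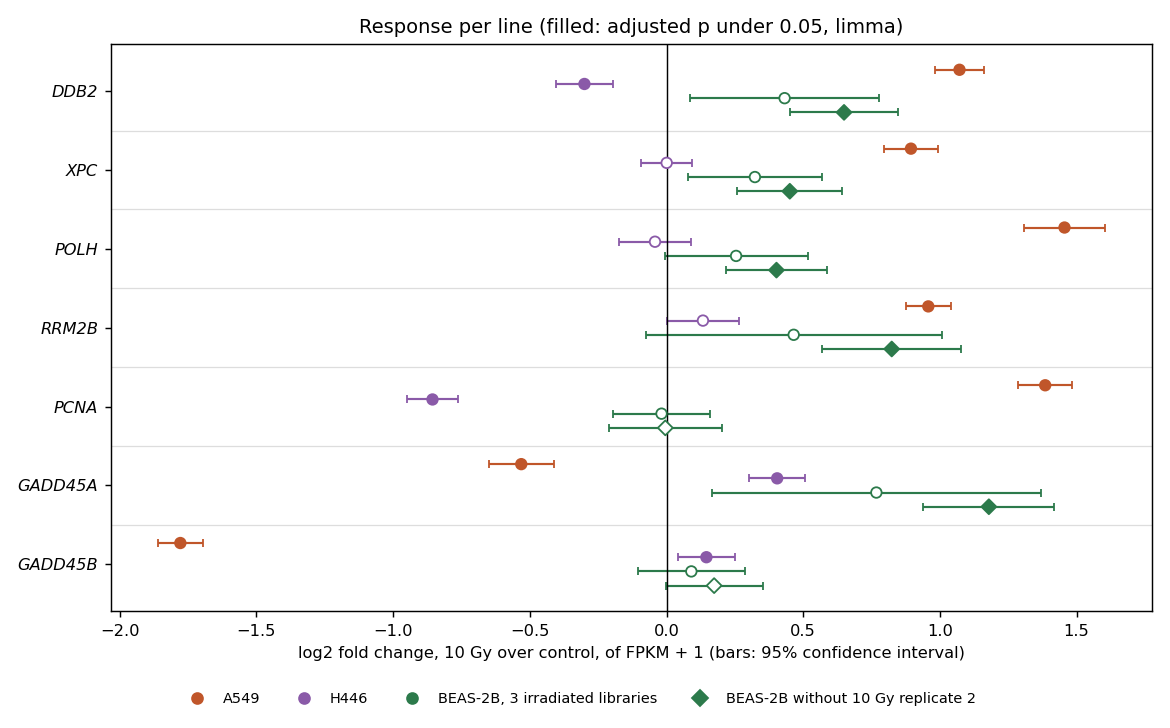
Log2 fold change of FPKM + 1, 10 Gy over control (horizontal axis), of the 7 members tested, with 95% confidence intervals from limma. Filled symbols passed an adjusted p of 0.05. A549 lies to the right of 0 for the 5 repair genes and to the left for GADD45A and GADD45B.

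DDB2, the damage-binding subunit mutated in xeroderma pigmentosum group E, approximately doubled in A549 cells. Its FPKM was 79.0, 80.3 and 74.6 in the A549 controls and 169.7, 166.0 and 159.1 after 10 Gy. Every irradiated library was above every control, with a log2 fold change of 1.07 (SE 0.040, adjusted p = 2.04e-09). In H446 cells it was 41.9, 42.1 and 41.5 in controls and 36.3, 33.2 and 31.9 after 10 Gy. Here every irradiated library was below the controls and the log2 fold change was -0.30 (SE 0.048, adjusted p = 0.00094). In BEAS-2B cells the controls had 26.4, 27.4 and 26.9 and the irradiated libraries 39.3, 26.8 and 46.5. Replicates 1 and 3 were above all controls and replicate 2 lay among them. The log2 fold change was 0.43 (SE 0.16, adjusted p = 0.314) with replicate 2 and 0.65 (SE 0.089, adjusted p = 0.0037) without it. In the order of mean levels, BEAS-2B controls were lowest, then H446 10 Gy, BEAS-2B 10 Gy, H446 controls, A549 controls and A549 10 Gy. The BEAS-2B 10 Gy range overlapped that of both H446 groups, and the other neighbours did not overlap.

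XPC, the sensor that opens the global branch of nucleotide excision repair, rose in A549 and did not change detectably in H446. Its FPKM was 32.2, 29.4 and 32.0 in A549 controls and 59.3, 60.4 and 56.6 after 10 Gy (log2 fold change 0.89, SE 0.046, adjusted p = 2.59e-08), without overlap. In H446 cells it was 21.1, 21.2 and 21.8 in controls and 20.6, 22.0 and 21.5 after 10 Gy, with overlapping groups. The H446 fold change had a 95% confidence interval of -0.093 to 0.094 (adjusted p = 0.993). In BEAS-2B cells the controls had 14.4, 16.2 and 15.7 and the irradiated libraries 20.7, 16.2 and 22.1. Replicates 1 and 3 were again above the controls and replicate 2 within their range. The log2 fold change was 0.32 (SE 0.11, adjusted p = 0.292), and 0.45 (SE 0.087, adjusted p = 0.0261) without replicate 2. By mean level the order was BEAS-2B controls, BEAS-2B 10 Gy, H446 controls, H446 10 Gy, A549 controls and A549 10 Gy, and the ranges of the 4 lowest groups overlapped from neighbour to neighbour.

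POLH had the largest fold change of the repair members in A549, with an interval that overlaps that of PCNA, and the lowest control level there in FPKM, which is per length. Its FPKM was 6.01, 5.46 and 6.76 in A549 controls and 17.7, 19.2 and 18.3 after 10 Gy (log2 fold change 1.46, SE 0.068, adjusted p = 1.16e-08; ratio of mean FPKM 3.02). Of the irradiated A549 libraries, 1 reached the range of the BEAS-2B controls, which had 20.9, 21.4 and 19.0, and the others lay below it. In irradiated BEAS-2B cells POLH was 27.7, 19.8 and 26.9, so that replicate 2 lay within the controls and the other two above them. The log2 fold change was 0.25 (SE 0.12, adjusted p = 0.413), and 0.40 (SE 0.084, adjusted p = 0.0376) without replicate 2. In H446 cells the values were 7.34, 6.63 and 7.51 in controls and 6.79, 6.89 and 7.07 after 10 Gy, with overlap and a confidence interval of -0.17 to 0.090 (adjusted p = 0.606). The order ran from A549 controls through H446 10 Gy, H446 controls, A549 10 Gy and BEAS-2B controls to BEAS-2B 10 Gy. Both H446 groups overlapped each other, and the 3 highest groups overlapped as neighbours.

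RRM2B nearly doubled in A549 cells. Its FPKM was 29.2, 28.1 and 28.6 in A549 controls and 55.7, 56.6 and 57.5 after 10 Gy (log2 fold change 0.96, SE 0.038, adjusted p = 2.84e-09), without overlap. BEAS-2B cells had 18.7, 17.2 and 19.4 in controls and 28.9, 15.3 and 38.5 after 10 Gy. Replicate 2 was the lowest of the 6 BEAS-2B libraries and the other irradiated libraries were the 2 highest. The log2 fold change was 0.47 (SE 0.24, adjusted p = 0.455), and 0.82 (SE 0.12, adjusted p = 0.0044) without replicate 2. H446 cells had 6.95, 6.98 and 6.29 in controls and 7.22, 7.71 and 7.52 after 10 Gy. The groups did not overlap, but the log2 fold change of 0.13 (confidence interval 0.0020 to 0.26) missed the threshold with an adjusted p of 0.0993. RRM2B passed in H446 in 1 of 17 alternatives, quantile normalization (adjusted p = 0.0252 by limma). By mean level the order was H446 controls, H446 10 Gy, BEAS-2B controls, BEAS-2B 10 Gy, A549 controls and A549 10 Gy. BEAS-2B 10 Gy overlapped both of its neighbours.

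The balance of RRM2B with RRM2, the S-phase small subunit of the same enzyme, differed between the lines. RRM2 fell in A549 (log2 fold change -0.44, SE 0.038, adjusted p = 2.03e-06) and in H446 (-0.31, SE 0.037, adjusted p = 0.00018). The ratio of RRM2B to RRM2, in FPKM per library, was 0.511 to 0.534 in A549 controls and 1.36 to 1.46 after irradiation. It was 0.0702 to 0.0783 in H446 controls and 0.0963 to 0.111 after irradiation, again without overlap. For BEAS-2B the ratio was 0.125 to 0.154 in controls, 0.235 and 0.336 in irradiated replicates 1 and 3, and 0.114 in replicate 2. RRM2B exceeded RRM2 in irradiated A549 libraries and in no other group. RRM1, the large subunit, had a log2 fold change of 0.056 in A549 (adjusted p = 0.234) and fell in H446 (-0.19, SE 0.038, adjusted p = 0.0029).

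PCNA moved in opposite directions in the 2 cancer lines. Its FPKM was 141.0, 144.2 and 146.2 in A549 controls and 380.0, 400.1 and 352.6 after 10 Gy (log2 fold change 1.38, SE 0.045, adjusted p = 6.29e-10). In H446 cells it was 150.2, 151.6 and 159.9 in controls and 85.8, 87.7 and 80.3 after 10 Gy (log2 fold change -0.86, SE 0.042, adjusted p = 3.54e-07). The groups did not overlap in either line, and the controls of both lines were at a similar level. In BEAS-2B cells PCNA was the highest of all groups and did not pass the test. The values were 458.5, 443.6 and 475.6 in controls and 434.0, 444.6 and 482.5 after 10 Gy, with overlap. The BEAS-2B log2 fold change was -0.018 (confidence interval -0.19 to 0.16, adjusted p = 0.938), and -0.0045 (-0.21 to 0.20) without replicate 2. The 2 BEAS-2B groups were the only neighbours in the order of levels whose ranges overlapped. Of 19 S-phase replication genes, 18 fell and 0 rose in H446, with a median log2 fold change of -0.75. In A549, 13 fell and 2 rose, with a median of -0.28, so PCNA there changed against the direction of that list. The part of the S-phase list in the PCNA values was not tested.

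**Figure D3:**
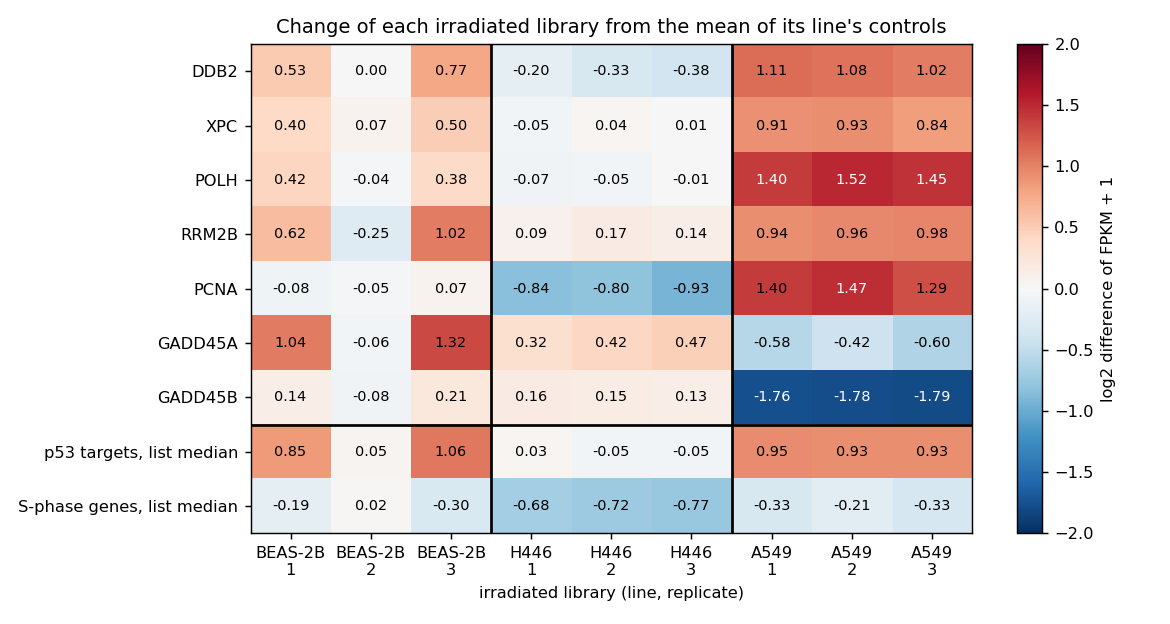
Log2 difference of FPKM + 1 of each of the 9 irradiated libraries (columns) from the mean of the 3 controls of its line, for 7 members and for the medians of 17 p53 targets and 19 S-phase genes. In BEAS-2B replicate 2 the p53 target median was 0.047, against 0.85 and 1.06 in replicates 1 and 3.

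GADD45A rose in H446 and fell in A549. Its FPKM was 116.6, 110.0 and 103.8 in A549 controls and 73.4, 82.1 and 72.4 after 10 Gy (log2 fold change -0.53, SE 0.054, adjusted p = 8.36e-06). H446 cells had 19.1, 18.9 and 18.8 in controls and 23.9, 25.7 and 26.6 after 10 Gy (log2 fold change 0.40, SE 0.046, adjusted p = 0.00013). Neither line had overlapping groups. In BEAS-2B cells the controls had 53.4, 64.5 and 56.0 and the irradiated libraries 119.8, 55.6 and 145.8. Replicates 1 and 3 were the highest of all 18 libraries and replicate 2 lay within the controls. The log2 fold change was 0.77 (SE 0.27, adjusted p = 0.306), and 1.18 (SE 0.11, adjusted p = 0.00027) without replicate 2. Both H446 groups were lowest, then BEAS-2B controls, A549 10 Gy, BEAS-2B 10 Gy and A549 controls, with the 3 highest groups overlapping as neighbours.

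GADD45B had the largest change of any member, a fall in A549. Its FPKM was 70.1, 70.8 and 72.1 in A549 controls and 20.2, 20.0 and 19.8 after 10 Gy (log2 fold change -1.78, SE 0.037, adjusted p = 3.41e-11). The irradiated A549 level was 0.282 of the control mean. In H446 cells it was 11.5, 12.2 and 11.5 in controls and 13.2, 13.1 and 12.9 after 10 Gy, a small rise without overlap (log2 fold change 0.15, SE 0.047, adjusted p = 0.0305). The H446 call was lost when 10 Gy replicate 2 or 3 or control replicate 1 or 3 was left out, with an adjusted p of 0.0586 to 0.103. BEAS-2B cells had 36.4, 39.5 and 39.9 in controls and 42.6, 36.5 and 44.7 after 10 Gy (log2 fold change 0.091, adjusted p = 0.673, and 0.17, adjusted p = 0.431, without replicate 2). The order was H446 controls, H446 10 Gy, A549 10 Gy, BEAS-2B controls, BEAS-2B 10 Gy and A549 controls, and the 2 BEAS-2B groups alone overlapped.

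GADD45G was at or near 0 everywhere, with 6 of 18 libraries at 0 and the highest at 0.37 FPKM. BEAS-2B cells had 0.15, 0 and 0.37 in controls and 0.32, 0.21 and 0.28 after 10 Gy. H446 cells had 0.08, 0 and 0, then 0, 0.14 and 0.07. In A549 cells it was 0, 0.16 and 0.14, then 0.16, 0.14 and 0. Control and irradiated groups overlapped in each line, and a two-sided exact permutation test gave p = 0.50, 0.70 and 1 (n = 3 per group, smallest p possible 0.10). The BEAS-2B 10 Gy libraries lay above every H446 and A549 library, at values near 0. No difference between control and 10 Gy was detectable at these levels.

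Within the family, GADD45B made up 37.5% to 41.0% of the summed GADD45 FPKM in A549 controls, 37.5% to 39.2% in H446 controls and 38.0% to 41.4% in BEAS-2B controls. These ranges overlapped although the summed level ran from 30.2 to 186.8 over the 9 control libraries. After irradiation the share was 19.6% to 21.5% in A549 and 32.7% to 35.5% in H446. For BEAS-2B it was 26.2% and 23.4% in replicates 1 and 3 and 39.6% in replicate 2. The share was lower than in controls in every irradiated A549 and H446 library. In A549 the summed level fell from 176.1 to 186.8 in controls to 92.2 to 102.2, whereas in H446 it rose from 30.2 to 31.0 to 37.1 to 39.6.

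**Figure D4:**
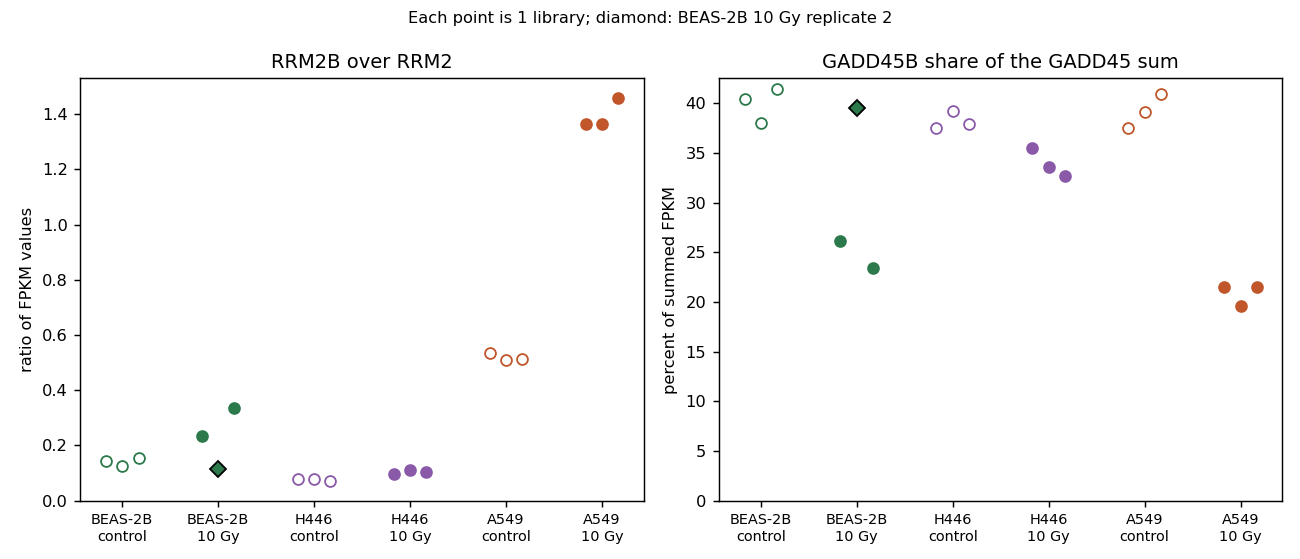
Ratio of RRM2B to RRM2 (left) and percent of the summed GADD45 FPKM that was GADD45B (right) in each library, by line and treatment. Irradiated A549 libraries have ratios of 1.36 to 1.46 and shares of 19.6% to 21.5%.

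Groups that do not overlap were common in all genes. In A549 they were found for 7 of 7 members and 58.5% of genes, in H446 for 5 of 7 members and 50.3% of genes, and in BEAS-2B for 0 of 7 members and 16.4% of genes. Without BEAS-2B 10 Gy replicate 2 they were found for 6 of 7 members and 27% of genes. That library was singled out by its p53 targets, which favours the count of members. In these bulk libraries, less transcript per cell and fewer cells that carry it cannot be told apart.

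The responses of the lines were then compared with each other, as a difference of log2 fold changes in the fit of all 18 libraries. These comparisons share their groups pairwise. The spread of each gene is pooled over the lines in that fit. The p-values of differences that involve BEAS-2B, and the counts of genes passing, may therefore be too favourable. The A549 response differed from the H446 response in 7 of 7 members, beside 34.6% of 13071 genes. The 5 repair genes responded more in A549, from 0.82 for RRM2B (SE 0.26, adjusted p = 0.0208) and 0.89 for XPC (SE 0.11, adjusted p = 1.25e-05) to 2.24 for PCNA (SE 0.077, adjusted p = 1.9e-12). DDB2 differed by 1.37 (SE 0.17) and POLH by 1.50 (SE 0.14). GADD45A differed by -0.94 (SE 0.29, adjusted p = 0.02) and GADD45B by -1.92 (SE 0.083, adjusted p = 2.87e-11). BEAS-2B 10 Gy replicate 2 enters the shared spread, and without it the SE was 0.11 for both RRM2B and GADD45A, with the differences unaltered.

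BEAS-2B and A549 responses differed in 6 members, beside 30.6% of genes. The log2 fold change was lower in BEAS-2B than in A549 for DDB2 (-0.64, SE 0.17, adjusted p = 0.0074), XPC (-0.57, SE 0.11, adjusted p = 0.0011), POLH (-1.20, SE 0.14, adjusted p = 4.7e-06) and PCNA (-1.40, SE 0.077, adjusted p = 9.13e-10). It was higher in BEAS-2B for GADD45A (1.30, SE 0.29, adjusted p = 0.003) and GADD45B (1.87, SE 0.083, adjusted p = 6.34e-11). RRM2B did not pass, with -0.49 (confidence interval -1.04 to 0.058), but passed when BEAS-2B 10 Gy replicate 3 was left out (-0.77, adjusted p = 0.0057). Without replicate 2, conditioned as said above, the RRM2B difference was -0.13 (-0.37 to 0.10, adjusted p = 0.403), the smallest of the 7 members. The others were -0.42 for DDB2, -0.44 for XPC, -1.05 for POLH, -1.39 for PCNA, 1.71 for GADD45A and 1.95 for GADD45B, which all passed.

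BEAS-2B and H446 responses differed in 3 members with all libraries, beside 22.7% of genes. The pooled spread may make these p-values too small, as said above. The 2971 genes behind that share became 4534 without BEAS-2B 10 Gy replicate 3 and 1814 without BEAS-2B control replicate 1. The members were DDB2 (0.73, SE 0.17, adjusted p = 0.0056), XPC (0.32, SE 0.11, adjusted p = 0.0475) and PCNA (0.84, SE 0.077, adjusted p = 3.96e-06), each more positive in BEAS-2B. The XPC call was lost in 18 of 22 alternatives, with an adjusted p of up to 0.284. By quantile normalization, 1236 genes were higher and 1542 lower in BEAS-2B, and after removal of a GC trend 628 and 739, in place of 1796 and 1175. Without replicate 2, conditioned as said above, 6 members differed, beside 18.5% of genes. POLH (0.44, SE 0.10), RRM2B (0.69, SE 0.11) and GADD45A (0.77, SE 0.11) then joined DDB2 (0.95), XPC (0.45) and PCNA (0.85). GADD45B did not pass either way, with -0.055 (confidence interval -0.23 to 0.12) and 0.028 (-0.11 to 0.17).

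**Figure D5:**
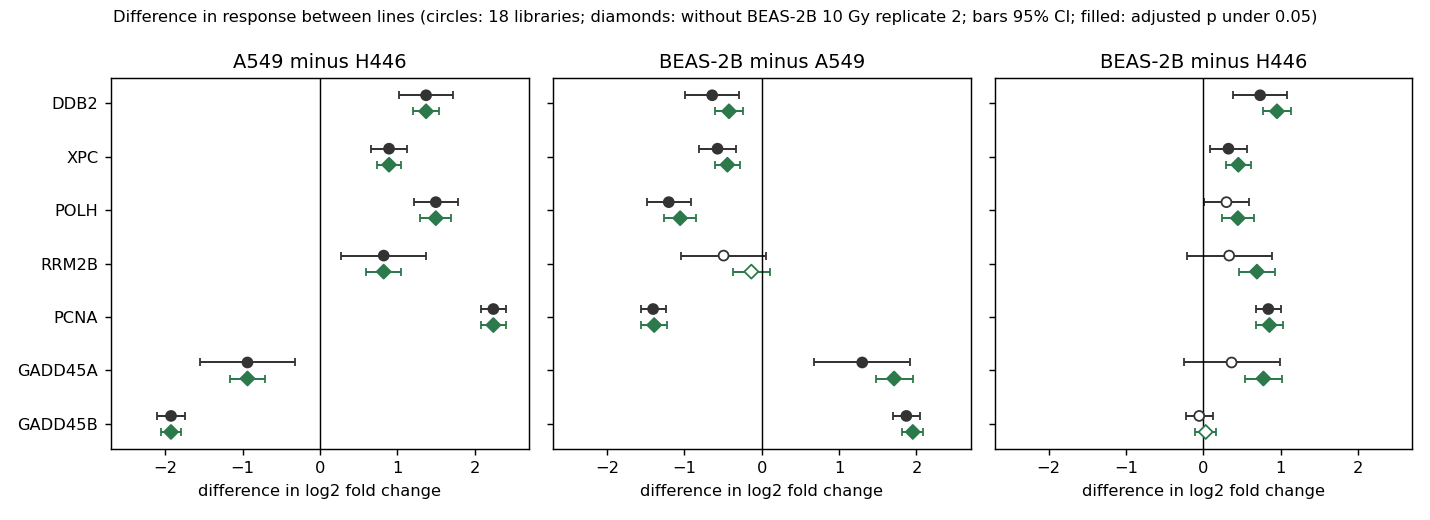
Difference between lines in log2 fold change of FPKM + 1 (horizontal axes) for 7 members with 95% confidence intervals. Circles use 18 libraries, diamonds leave out BEAS-2B 10 Gy replicate 2, and filled symbols passed an adjusted p of 0.05. The RRM2B interval includes 0 in the comparison of BEAS-2B with A549 both ways.

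The other genes of these pathways were counted as lists, beside all genes tested. Of these, 25.3% rose and 26.4% fell in A549, 14.8% rose and 23.6% fell in H446, and 0% passed in BEAS-2B. Without replicate 2, 1.97% passed there. The medians of all genes were -0.0040 in A549, -0.033 in H446 and 0.0019 in BEAS-2B (-0.0031 without replicate 2). Nothing particular to a list is read from counts near these shares. Of 31 nucleotide excision repair genes beside DDB2 and XPC, 7 rose and 12 fell in A549 (median log2 fold change -0.048, all genes -0.0040), 6 rose and 8 fell in H446 (median -0.0085, all genes -0.033), and 0 passed in BEAS-2B with or without replicate 2. Among the partners of DDB2 and XPC in A549, DDB1 rose by 0.21 (SE 0.035, adjusted p = 0.00035) and CETN2 by 0.35 (SE 0.038, adjusted p = 1.38e-05). LIG1, a ligase that seals repair and replication gaps, had -0.61 in H446 (SE 0.048, adjusted p = 9.09e-06). DDB1 and CETN2 were named after their values were seen.

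Of 19 translesion and PCNA modification genes tested of 20, 4 rose and 5 fell in A549, 5 rose and 4 fell in H446, and 0 passed in BEAS-2B with or without replicate 2. The medians were -0.086, 0.036 and -0.15 (-0.12 without replicate 2). REV3L, the catalytic subunit of polymerase zeta, rose in A549 from 4.63 to 5.80 FPKM in controls to 8.08 to 8.41 (log2 fold change 0.57, SE 0.072, adjusted p = 4.33e-05). USP1, the protease that removes ubiquitin from PCNA, fell there from 31.2 to 36.0 down to 21.2 to 21.9 (-0.61, SE 0.051, adjusted p = 1.58e-06). POLQ rose in H446 (0.62, SE 0.057, adjusted p = 3.15e-05).

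Of 18 genes that load PCNA or work on it, 0 rose and 7 fell in A549 (median -0.078), 1 rose and 14 fell in H446 (median -0.40), and 0 passed in BEAS-2B with or without replicate 2 (medians -0.081 and -0.13). RFC2, a clamp loader subunit, fell in both cancer lines, by -0.52 in A549 (SE 0.059, adjusted p = 1.9e-05) and -0.69 in H446 (SE 0.046, adjusted p = 2.9e-06). CHAF1B (-0.74), FEN1 (-0.60) and POLD3 (-0.57) also fell in H446. Of 15 deoxynucleotide supply genes, 2 rose and 9 fell in A549 (median -0.12), 0 rose and 7 fell in H446 (median -0.11), and 0 passed in BEAS-2B with or without replicate 2 (medians -0.040 and -0.064). DUT (-0.54) fell in A549, and TYMS (-0.62) and DUT (-0.57) in H446.

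Of 13 GADD45 partners and stress kinases, 5 rose and 4 fell in A549, and 5 rose and 4 fell in H446, with medians of -0.10 and 0.017. None passed in BEAS-2B, and 3 rose without replicate 2, among them MAP2K3 (0.53, SE 0.11, adjusted p = 0.0376). CCNB1, the cyclin B1 that GADD45A binds with CDK1, rose from 94.6 to 97.6 FPKM to 184.1 to 193.6 in H446 (log2 fold change 0.97, SE 0.034, adjusted p = 4.54e-08) and by 0.55 in A549 (SE 0.060, adjusted p = 1.34e-05). CDK1 (0.83) and AURKA (0.93) rose in H446, while MAP2K6, a p38 kinase activator, had -0.69 (SE 0.073, adjusted p = 7.61e-05).

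Of the S-phase list, MCM6 (-0.77), MCM5 (-0.72), E2F1 (-0.63) and CDC45 (-0.62) had the largest falls in A549. UNG (-1.39), MCM5 (-1.33), CCNE2 (-1.20) and GINS2 (-1.09) had them in H446. In BEAS-2B 0 of these 19 genes passed, and 1 fell without replicate 2. Of 17 p53 targets outside repair, 16 rose and 0 fell in A549 (median 0.91), and 3 rose and 1 fell in H446 (median -0.022). In BEAS-2B 0 passed, with a median of 0.71 and 17 of 17 fold changes above 0. Without replicate 2 the median was 0.95, a value that the choice of that library by CDKN1A and MDM2 favours, and it is given with no count of calls. TP53INP1 (1.92), FDXR (1.78), MDM2 (1.76) and CDKN1A (1.54) rose most in A549.

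The genes nearest to each member in pattern were found by the root mean square difference of their log2 changes over the 9 irradiated libraries, among 13158 genes. This is a description over libraries that share their controls. XPC was nearest to APOBEC3C (0.090), DPYSL4 (0.098) and SERPINF1 (0.11), and POLH to THSD1 (0.096), SPATA18 (0.12) and EPS8L2 (0.16). DDB2 was nearest to TNFRSF10D (0.15), ZMAT3 (0.16) and TRIM3 (0.18), and RRM2B to PPM1D (0.16), IP6K3 (0.17) and PANK1 (0.17). PCNA had 1 near neighbour, ALDH3A1 (0.16), ahead of UGT1A6 (0.34) and FAM20C (0.37). GADD45A was nearest to SNAI2 (0.16), DUSP5 (0.20) and DNAJB2 (0.22), and GADD45B to ASNS (0.20), ANKRD1 (0.23) and TRAF1 (0.26).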

How the data were processed

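The authors sequenced poly(A)-selected RNA of 18 libraries as single-end reads and deposited 1 table of normalized values. The deposited values are taken as FPKM, since no source used here names the unit. The submitters' processing notes list HISAT2 2.0.4, Bowtie2 2.2.5, RSEM 1.2.12 and hg38, with no role or order. Values were transformed to log2(FPKM + 1), so fold changes of low genes are understated. Genes that reached 1 FPKM in 3 or more of a line's 6 libraries were tested with limma 3.58.1 (lmFit, eBayes with trend) in R 4.3.3, and adjusted by Benjamini-Hochberg over all genes tested, with a threshold of 0.05. Differences between lines came from 1 fit of 18 libraries with 6 group means, over genes that passed in at least 1 line. GADD45G was given an exact permutation test. The scripts were tested on simulated data. Tables and figures used Python 3.11.15, pandas 2.3.3, numpy 2.4.6, scipy 1.17.1 and matplotlib 3.10.9.

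The members and the pathway lists were chosen with earlier results of these data known. All 8 members are reported. From each list and line, at most 4 called genes were named, by size, among those with groups that do not overlap and an absolute log2 fold change of at least 0.5. For each member the 3 nearest genes were named, with CDKN1A and MDM2 as checks. Some genes within this rule are not reported here. Cell type markers were used as fixed lists. Alternatives were a pseudocount of 0.1, no filter, 1 FPKM or more required in each library, quantile normalization, equal library totals, no trend, the replicate number as a block, other thresholds, other sets of libraries in 1 fit, and each library left out. A GC correction (loess, span 0.5, 17850 genes with a GC content), and leaving BEAS-2B 10 Gy replicate 2 out of comparisons that do not contain it, were chosen after seeing the data.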

Additional observations from a re-analysis of the deposited data

Results flagged for a closer look

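The responses of 2 lines differed, in limma's test of the difference in log2 fold change over all 18 libraries, in 16 instances among the members. A549 minus H446 was 1.37 for DDB2, 0.89 for XPC, 1.50 for POLH, 0.82 for RRM2B, 2.24 for PCNA, -0.94 for GADD45A and -1.92 for GADD45B. BEAS-2B minus A549 was -0.64 for DDB2, -0.57 for XPC, -1.20 for POLH, -1.40 for PCNA, 1.30 for GADD45A and 1.87 for GADD45B. BEAS-2B minus H446 was 0.73 for DDB2, 0.32 for XPC and 0.84 for PCNA. For the instances with BEAS-2B, the pooled spread may make the p-values too small. PCNA was the member whose change had opposite signs past the threshold in A549 and H446 with the largest difference, and DDB2, GADD45A and GADD45B also had opposite signs there. No formal outlier test was run on groups of 3 libraries. BEAS-2B 10 Gy replicate 2 was noticed from its CDKN1A and MDM2 values.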

How the results depend on the processing

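Over 63 fold changes of members and their alternatives, 1115 of 1204 values kept their direction and their side of the threshold, 50 were no longer past it, 29 came past it and 10 changed sign. Values that changed sign were all of results not past the threshold: XPC in H446 (-0.021 to 0.025 with 1 library left out), POLH in H446 (0.014, quantile normalization), PCNA in BEAS-2B (0.00093 without a GC trend, -0.063 to 0.013 with 1 library left out) and GADD45B in BEAS-2B (-0.019 without a GC trend) or against H446 (-0.11 to 0.028 with 1 library left out).

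With an absolute log2 fold change of at least 1, the members called were 4 in A549, 0 in H446, 4 for A549 minus H446, 0 for BEAS-2B minus H446, 3 for A549 against BEAS-2B controls and 3 for H446 against A549 controls. In the fit of all 18 libraries, 1 member passed in H446 (3157 of 13071 genes) and 3 in BEAS-2B (842 of 13071 genes). With each library left out, 0 to 5 members passed in BEAS-2B and 2 to 6 for BEAS-2B minus H446. The higher values were without BEAS-2B 10 Gy replicate 2 (231 and 2414 genes) and are conditioned as said above. With that limit the genes called were 107 in A549, 20 in H446, 151, 129 and 32 for the differences in response and 3504, 3115 and 3630 for the controls. At an adjusted p under 0.01 they were 2529 in H446 and 2824, 2308 and 1208 for the differences. At the main threshold, removal of a GC trend left 1367 genes for BEAS-2B minus H446, in place of 2971. The causes were not tested beyond the stricter thresholds.

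Replicate numbers were not taken as pairs, since same-numbered libraries did not deviate together throughout. Their r was 0.010, -0.055 and -0.099 in A549, 0.190, 0.010 and 0.082 in H446 and -0.13, 0.324 and 0.311 in BEAS-2B. With the replicate block, 4 members and 439 of 11734 genes passed in BEAS-2B, and no library correlated best with its own number in A549. With the block, XPC was lost for BEAS-2B minus H446 (adjusted p = 0.0607) and POLH passed between H446 and A549 controls (adjusted p = 0.0476). Depth is unknown, so the error of low values such as GADD45G is not known.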
